A study of Rattus norvegicus with 32 samples.

Results

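The lung's extracellular matrix genes were followed after a single hemorrhage in rats, together with the integrins that bind the matrix and the metalloproteinases and inhibitors that control its turnover. Members were taken by gene symbol from the array annotation: collagens (Col), laminin chains (Lama, Lamb, Lamc), integrin subunits (Itga, Itgb), matrix metalloproteinases (Mmp, without Mmp8), their tissue inhibitors (Timp), and Fn1, Eln, Spp1, Sparc, Dcn and Bgn. They were 47 of the 5022 genes with a symbol of their own, and 46 of them had enough values to be tested. The members comprised 8 fibrillar collagens, 5 basement membrane collagens and laminins, 8 other matrix proteins, 6 integrin alpha and 5 integrin beta subunits, 12 metalloproteinases and 3 inhibitors.

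Total lung RNA of 32 male Sprague-Dawley rats of 280 to 300 g was compared, each on its own 2-colour spotted array, with a common reference. That reference pooled organ RNA of untreated control rats, lung among them; the labels speak of 10 organs and name 9. Bled rats had been fitted with arterial catheters and a telemetry device under isofluorane, had recovered for 7 to 10 days, and lost 40% of their estimated blood volume through the externalized catheter. Lungs were taken at 7 times, the first at 1 h and the others at 3, 6, 16, 24, 48 and 72 h, after Nembutal anesthesia and exsanguination; there were 5 rats at 6 h and 3 at each other time. Sham rats (6) carried the same instruments and were not bled, and control rats (3) were neither instrumented nor bled. The labels do not give a clear time for the sham lungs, so all 7 times were set against the same sham group, which the 7 comparisons therefore share.

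Sham replicate 2 and 16 h replicate 3 carried liver transcripts, with a median log2 ratio over 16 liver genes of 3.10 and 2.64 against at most -0.84 in the controls. They were left out, so 30 arrays with 5 sham lungs and 2 lungs at 16 h entered the results. Arrays had 13056 spots, of which 12151 to 12895 carried a value, and repeat spots of a gene correlated at 0.63 to 0.95 within an array. The 3 h replicate 2 array agreed least between its repeat spots among the arrays used, at 0.63. Lung epithelial genes had the highest median of all organ lists on 30 of 32 arrays, so ratios were read as lung over pool, with the dyes themselves not given. All values below are log2 ratios of lung to pool after subtraction of the array's median, and a log2 difference of 1 is a 2-fold change. A ratio to the pool ranks the samples for 1 gene and does not rank genes. In whole lung, fewer cells of a type and less RNA per cell cannot be told apart. Nothing in the labels ties arrays to litters or days, and p-values measure the spread between these rats.

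The pulmonary matrix has a fibrillar and an elastic part, which give the alveolar wall strength and recoil, and basement membranes under epithelium and endothelium. Type I and type III collagens form the tensile fibrils, elastin (Eln) the recoiling fibres, and laminins with type IV and type XVIII collagens the basement membrane. Integrins are alpha-beta dimers by which cells hold fibronectin, collagen and laminin. Matrix metalloproteinases are zinc proteases, mostly secreted as inactive precursors, which cut these proteins, and the TIMP proteins block their active site.

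Several of the metalloproteinase members are neighbours: 10 Mmp genes follow each other on rat chromosome 8 in the order Mmp13, Mmp12, Mmp1b, Mmp3, Mmp1, Mmp10, Mmp8, Mmp27, Mmp20 and Mmp7, and 5 of them are members. Their promoters are shown because Mmp13 and Mmp12 were among the few members called, and Mmp3, Mmp10 and Mmp7, which were not called, are their neighbours. Each of the 5 promoters holds TGANTCA, the core letters bound by AP-1 (Fos-Jun) factors, and TATAAA, the TATA box letters. Sequences are the 100 bases before the RefSeq gene start in build GRCr8, read 5′ to 3′ on the gene's strand, with both motifs in capitals.
Mmp13: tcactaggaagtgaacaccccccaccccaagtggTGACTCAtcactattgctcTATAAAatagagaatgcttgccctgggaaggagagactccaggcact
Mmp12: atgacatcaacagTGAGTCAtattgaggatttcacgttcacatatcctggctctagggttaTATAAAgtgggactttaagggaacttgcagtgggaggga
Mmp3: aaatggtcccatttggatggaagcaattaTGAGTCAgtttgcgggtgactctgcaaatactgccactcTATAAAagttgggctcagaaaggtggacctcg
Mmp10: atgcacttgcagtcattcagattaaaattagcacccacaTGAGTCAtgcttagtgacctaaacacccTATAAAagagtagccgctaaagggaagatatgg
Mmp7: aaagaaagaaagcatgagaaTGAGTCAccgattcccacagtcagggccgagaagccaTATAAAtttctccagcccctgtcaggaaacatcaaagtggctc
All 5 lie on the plus strand, at chr8:12782729-12782828 for Mmp13, chr8:12866552-12866651 for Mmp12, chr8:12925181-12925280 for Mmp3, chr8:12974607-12974706 for Mmp10 and chr8:13132943-13133042 for Mmp7. The AP-1 letters began 66 bases before the start in Mmp13, 87 in Mmp12, 71 in Mmp3, 61 in Mmp10 and 80 in Mmp7.

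RefSeq promoters were at hand for 29 of the 47 members. Searched on both strands over the 250 bases before the start, TGANTCA was present in 6 of the 29 (20.7%) and in 6.34% of all 33469 promoters. The member with TGANTCA besides the 5 printed was Lama3, which held 3 matches and no TATAAA. The TATAAA letters were present in 9 of the 29 (31.0%) and in 12.9% of all promoters. Both were present in 5 of the 29, the promoters printed here, against 1.02% of all promoters. These 5 belong to neighbouring genes of 1 family and are not 5 separate observations. The promoter of Mmp23, a membrane-bound metalloproteinase on another chromosome, is shown beside them because it was called in the opposite direction to Mmp13 between early and late lungs; it has neither motif and is printed with the GGGCGG box letters, which lie on the opposite strand, in capitals.
Mmp23: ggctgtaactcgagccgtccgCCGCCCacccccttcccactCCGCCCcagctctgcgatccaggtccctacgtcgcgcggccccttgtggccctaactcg
It lies on the minus strand at chr5:171524535-171524634. GGGCGG was present in 15 of the 29 member promoters (51.7%) and in 30.5% of all promoters. Mmp11 and Mmp24, which were not called, also held neither TGANTCA nor TATAAA. A match gives the letters in this window and no more.

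Across unbled and bled lungs, few members stood on one side of the pool throughout. Spp1 (osteopontin, a secreted integrin ligand) and Timp3 (the inhibitor that binds to the matrix) were above the pool on all 30 arrays, and Sparc, a collagen-binding glycoprotein, on 29 of 30. Mmp14 and Mmp10 were below it on all 30 arrays, and Mmp7 (matrilysin) on all 29 with a value. That is 2 of 46 members (4.35%) above the pool on every array and 3 (6.52%) below, close to the 3.72% and 7.40% of all 4999 genes tested. The spread between rats of a group was also close to that of other genes, with a median SD of 0.46 for members and 0.43 for all genes. Spp1 varied least among the members (SD 0.20) and Mmp7 most (SD 1.17).

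**Figure D1:**
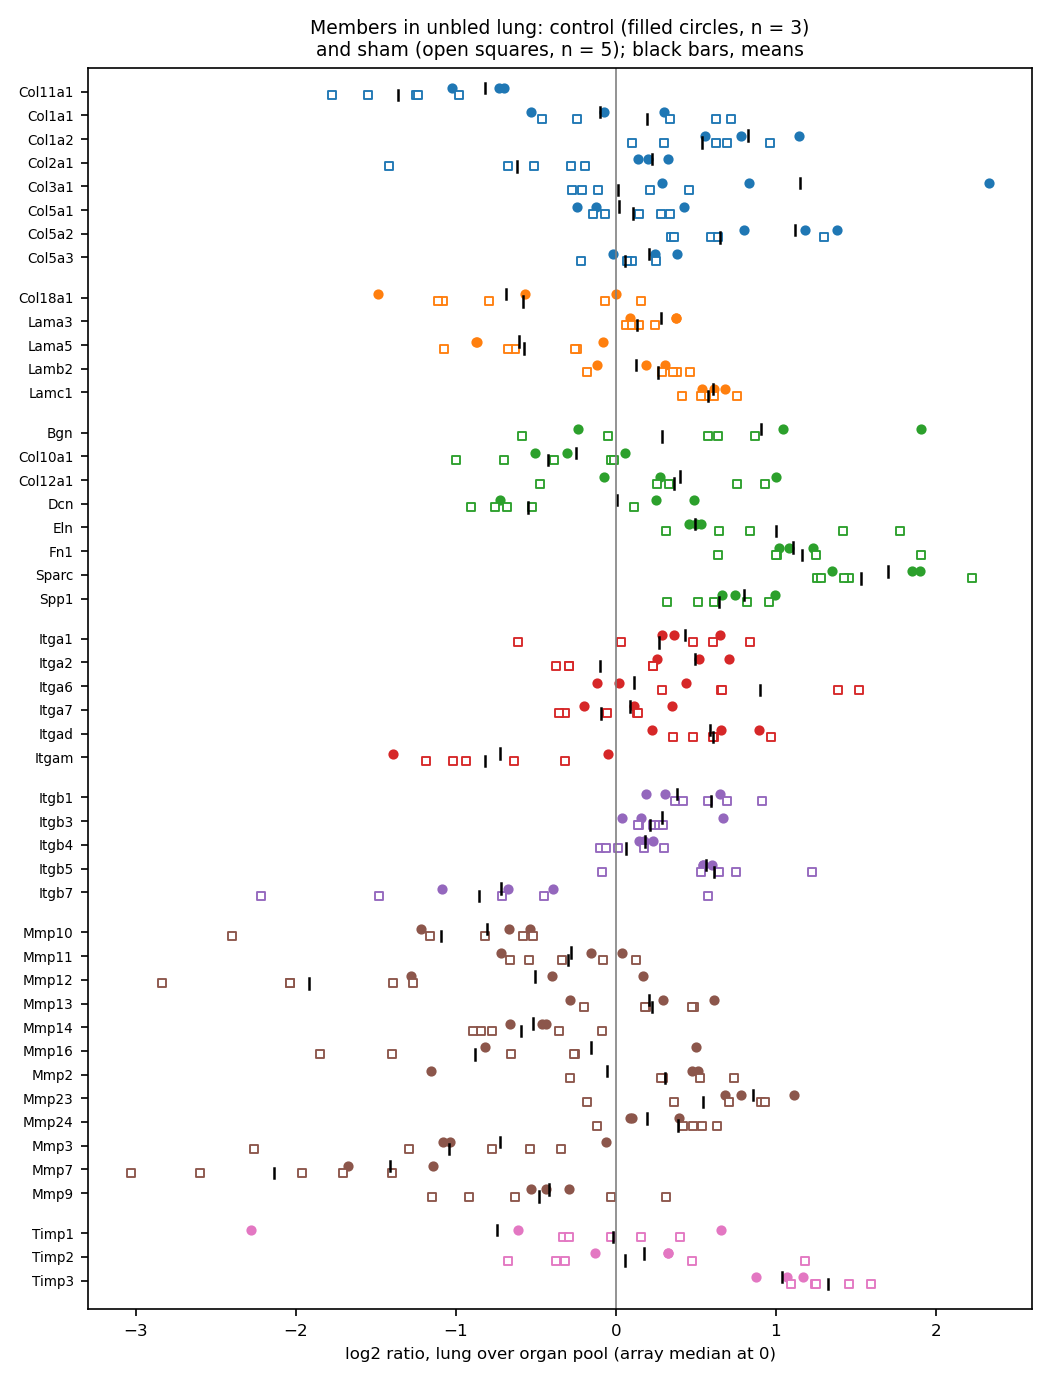
Log2 ratio of lung to organ pool (horizontal axis) for the 47 members in the 8 unbled lungs, grouped by role, with filled circles for control lungs (n = 3, or 2 where 1 had no value), open squares for sham lungs (n = 5) and black bars for the means. Spp1 and Timp3 lie to the right of 0 and Mmp14, Mmp10 and Mmp7 to the left in all unbled lungs with a value.

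Instrumentation alone was tested as sham against control, with limma over all genes tested (adjusted p by Benjamini-Hochberg, a call being an adjusted p under 0.05). None of 46 members and 0% of all genes were called. At an unadjusted p under 0.05 there were 5 members (1 higher, 4 lower), or 10.9%, against 4.72% of all genes. The lowest p-values belonged to 2 fibrillar collagens. Col3a1, the type III chain of compliant tissues, was 0.29, 0.83 and 2.33 in the control lungs and 0.46, -0.11, -0.27, -0.21 and 0.22 in the sham lungs. The groups overlapped, and 1 control lung at 2.33 stood well above the other controls; the log2 difference was -1.13 ± 0.34 (SE; adjusted p = 0.806, limma). Col2a1, known as the cartilage collagen, was 0.20, 0.14 and 0.33 in the controls and -0.28, -0.67, -0.51, -0.19 and -1.42 in the shams. The highest of the other 27 arrays, bled lungs included, was -0.19, below all 3 controls, and the sham difference was -0.84 ± 0.27 (SE; adjusted p = 0.806, limma). Of 5 cartilage markers measured, Col2a1 and Col11a1 among them, 0 were called between sham and control. The median of the 5 was -0.92 to 0.18 in the controls and -1.42 to -0.19 in the shams. In sham replicates 3, 4, 5 and 6 this median was the value of Col2a1 itself, so it is no separate reading of cartilage there. The part of cartilage in the Col2a1 values was not tested.

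Against sham, few members passed the test at any time. At 1 h 0 of 46 were called, as were 0% of all genes; at an unadjusted p under 0.05 there were 3 members (6.52%) against 10.8% of genes. At 3 h 3 members were called (6.52%, background 3.16%), 1 higher and 2 lower, and 10 (21.7%) against 22.7% of genes had an unadjusted p under 0.05. At 6 h no member was called (background 0%), and 10 members (21.7%) against 19.1% of genes had an unadjusted p under 0.05. At 16 h no member was called (background 0.12%), and 7 (15.2%) against 14.2% passed unadjusted. The counts were small, and members passed unadjusted about as often as other genes from 3 to 16 h. At 24 h 2 members were called, both lower (4.35%, background 3.96%), and 6 (13%) against 20.2% passed unadjusted. At 48 h 1 was called, lower (2.17%, background 1.64%), and 5 (10.9%) against 16.3% passed unadjusted. At 72 h 1 was called, higher (2.17%, background 6.82%), and 4 (8.70%) against 23.7% passed unadjusted, so that the share of members was below that of all genes; the gap was not tested. The median log2 difference of the members was between -0.11, at 3 h, and 0.046, at 6 h.

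Separation from the sham lungs was counted as well. Members whose lungs did not overlap with sham numbered 1 at 1 h (6.66% of all genes), 5 at 3 h (10.2%) and 4 at 6 h (6.12%). They numbered 11 at 16 h, where 2 lungs make separation easy (23.7%), 6 at 24 h (11.4%), 6 at 48 h (13.8%) and 3 at 72 h (19.3%). As shares of 46 these were 2.17%, 10.9%, 8.70%, 23.9%, 13%, 13% and 6.52%. Between sham and control 2 members did not overlap (4.35%), against 3.06% of all genes.

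A further 3 tests used the same fit. The F test over the 7 times called 1 member (background 8.04%), with 17 (37.0%) against 32.5% of genes under 0.05 unadjusted. The mean of the 7 times against sham called 1 (background 3.44%), with 7 (15.2%) against 23.1% unadjusted. The late lungs (24, 48 and 72 h) against the early ones (1, 3 and 6 h) called 2 (background 8%), with 10 (21.7%) against 26.4% unadjusted. Over all 11 comparisons, each adjusted on its own, 11 calls fell on 7 members: 4 metalloproteinases (Mmp12, Mmp13, Mmp14 and Mmp23), fibronectin (Fn1), 1 collagen chain (Col1a2) and 1 integrin (Itga1). The other 39 tested members were called in none. The calls went both ways within the metalloproteinases, and no basement membrane gene, integrin beta subunit or TIMP was called in this fit.

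**Figure D2:**
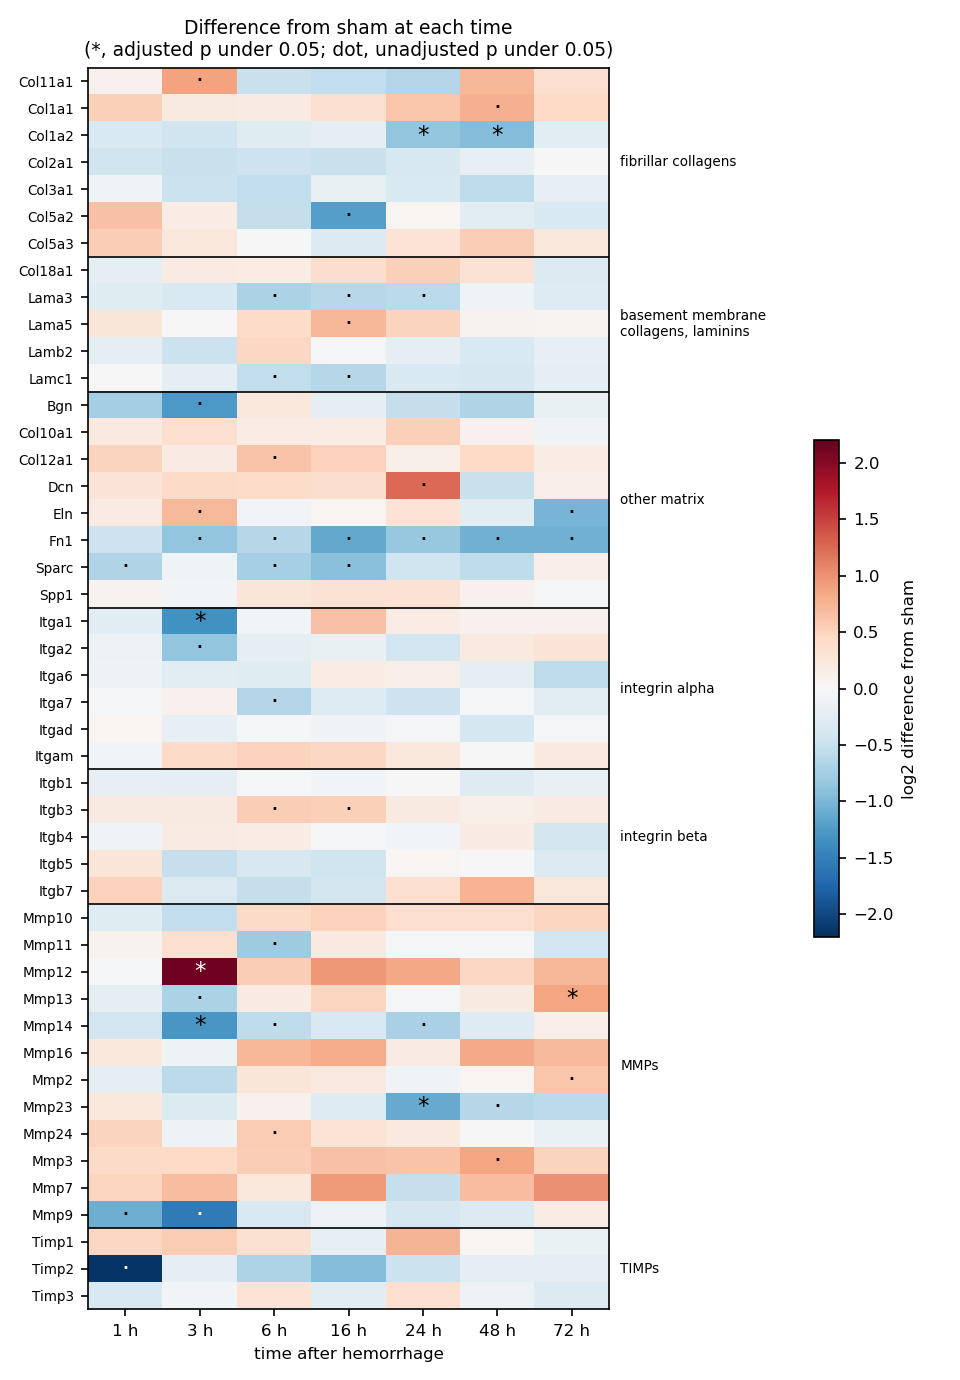
Log2 difference from sham (colour, blue lower and red higher) for the 46 tested members in rows, grouped by role, and the 7 times in columns; a star marks an adjusted p under 0.05 and a dot an unadjusted p under 0.05. Stars stand at 3 h (Mmp12, Mmp14, Itga1), 24 h (Mmp23, Col1a2), 48 h (Col1a2) and 72 h (Mmp13), and the rest of the map carries no star.

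Among the fibrillar collagens, Col1a2, the alpha 2 chain of type I collagen, was called against sham at both 24 h and 48 h, lower each time. It was 0.78, 0.56 and 1.14 in the controls and 0.70, 0.63, 0.10, 0.30 and 0.96 in the shams. It was 0.53, -0.15 and 0.23 at 1 h, -0.11, -0.17 and 0.57 at 3 h and 0.24, 0.093, 0.25, 0.61 and 0.18 at 6 h. Later it was 0.18 and 0.49 at 16 h, -0.20, -0.16 and -0.61 at 24 h, -0.10, -0.64 and -0.49 at 48 h and -0.037, 0.31 and 0.61 at 72 h. All lungs at 24 h and at 48 h lay below 0 and below every sham and control lung, and those at 72 h overlapped with sham again. Col1a2 fell by 0.86 ± 0.24 (SE) at 24 h (adjusted p = 0.0396) and by 0.95 ± 0.24 at 48 h (adjusted p = 0.0404), both limma. With all 32 arrays both differences kept their sign, but the adjusted p-values became 0.14 at 24 h and 0.162 at 48 h. With the replicate number as a block (the replicate block) they were 0.129 and 0.164, and with arrays weighted by their spread (array weights) 0.0617 at 24 h. The call also depended on single lungs. At 24 h it was lost without any 1 of sham replicates 1, 3 and 6 and 24 h replicates 1 and 3 (adjusted p 0.0612 to 0.24). At 48 h it was lost without any 1 of sham replicates 1, 3, 5 and 6 and the 3 lungs at 48 h (0.0606 to 0.178). The liver gene median was -0.13, -0.39 and -0.60 at 24 h and -0.78, 0.15 and -1.35 at 48 h. In the shams it was -1.27 to -0.68. 48 h replicate 2, at 0.15, had the lowest Col1a2 of its time. The part of liver signal in the Col1a2 values was not tested.

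Its partner in the type I fibre, Col1a1, was not called. Col1a1 was 0.72, -0.46, 0.62, -0.24 and 0.34 in the shams, 0.51, 0.39 and 1.5 at 24 h and 0.78, 1.75 and 0.38 at 48 h. It was above the sham mean at all 7 times, by 0.18 to 0.77, and passed no test after adjustment (at 48 h 0.77 ± 0.36, SE; adjusted p = 0.284, limma). Of the other fibrillar members, Col3a1 and Col2a1 were below the sham mean at all 7 times without a call. Col11a1, a chain of type XI collagen, had the lowest F test p of the class after Col1a2. It was -0.70, -1.02 and -0.73 in the controls and -1.55, -0.98, -1.25, -1.23 and -1.78 in the shams. At 1 h it was -1.26, -1.71 and -0.84, at 3 h -0.59, 0.13 and -0.97 and at 6 h -1.37, -2.29, -1.95, -2.60 and -1.03. The later ratios were -2.56 and -1.25 at 16 h, -2.62, -2.24 and -1.13 at 24 h, -0.60, 0.17 and -1.45 at 48 h and -1.27, -0.17 and -1.59 at 72 h. The lungs at 3 h all lay above the sham lungs and those at other times overlapped with them; the F test gave an adjusted p of 0.0788 (limma). Col5a1 had a value on 1 of the 3 arrays at 72 h and was not tested. The fibrillar collagens tested at each time were 7, of which 1 was called at 24 h and 1 at 48 h, with medians of -0.34 and -0.18.

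**Figure D3:**
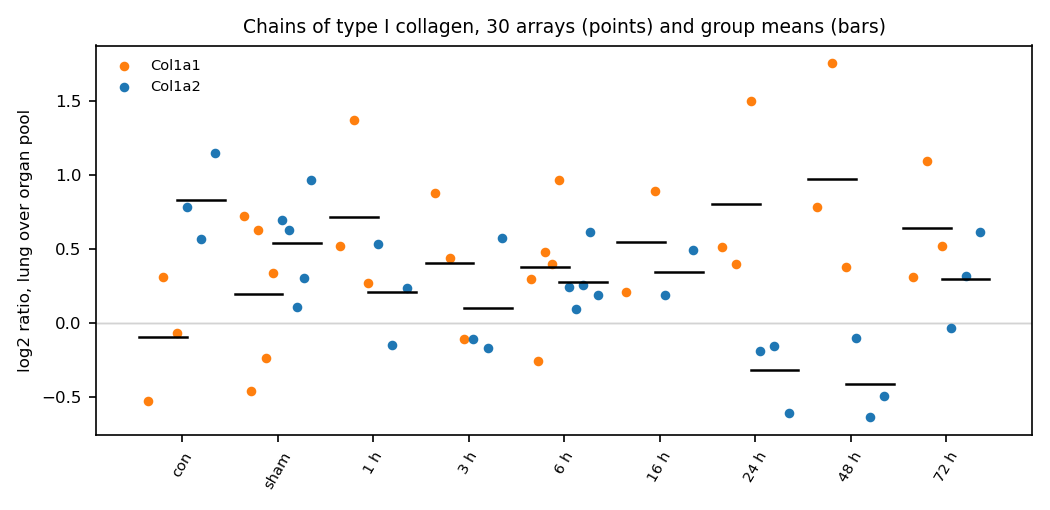
Log2 ratio of lung to pool (vertical axis) of the type I collagen chains Col1a1 and Col1a2 by group (horizontal axis), 1 point per lung in the 30 arrays used, with the group mean as a bar. The Col1a2 points at 24 h and 48 h all lie below 0 and below the 5 sham points, while the Col1a1 points of the same times overlap with sham.

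Fibronectin (Fn1), which links collagen to integrins and enters the lung's provisional matrix, was lower in bled lungs as a whole. It was 1.02, 1.23 and 1.08 in the controls and 1.01, 1.91, 0.64, 1.00 and 1.25 in the shams. Fn1 read 0.95, 0.93 and 0.23 at 1 h, 0.66, -0.80 and 1.03 at 3 h and 0.63, 0.52, 0.69, 0.68 and 0.15 at 6 h. It was -0.15 and 0.21 at 16 h, 1.06, 0.21 and -0.27 at 24 h, 0.32, 0.57 and -0.58 at 48 h and 0.32, 0.057 and -0.068 at 72 h. The mean was below sham at 7 of 7 times, by amounts from 0.46 at 1 h to 1.13 at 16 h, and 15 of the 22 bled lungs lay below the lowest of the 8 unbled ones. At 6 of the 7 times the unadjusted p was under 0.05 and at none was the adjusted p. The mean of the 7 times fell by 0.86 ± 0.24 from sham (limma, adjusted p = 0.0444). Without sham replicate 3, the highest sham lung at 1.91, the mean of the 7 times fell by 0.68 with an adjusted p of 0.159. The call was lost in 13 of the 30 analyses with 1 lung left out, at adjusted p-values of 0.0504 to 0.159. Those lungs were sham replicates 1, 3, 5 and 6, control replicate 2, 1 h replicate 3, 6 h replicates 2 and 5, 16 h replicate 1, 24 h replicate 3, 48 h replicate 3 and 72 h replicates 2 and 3. It was also lost with the replicate block (0.0919). With sham and control lungs together as 8 unbled lungs, 8 members were called in the mean of the 7 times, all lower. They were Fn1, Col1a2, Col2a1, Col3a1, Lama3, Mmp14, Mmp23 and Sparc. In that setting 1042 of 5000 genes were called, so members were not called more often than genes in general.

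Elastin (Eln) missed the threshold by a small margin at 72 h. It was 0.53, 0.50 and 0.46 in the controls and 1.42, 0.32, 1.78, 0.65 and 0.84 in the shams. After bleeding it was 1.2, 1.49 and 0.87 at 1 h, 2.52, 1.21 and 1.42 at 3 h and 0.59, 0.83, 0.92, 1.15 and 1.24 at 6 h. Later on, Eln read 0.96 and 1.13 at 16 h, 1.52, 1.08 and 1.31 at 24 h, 0.52, 1.39 and 0.41 at 48 h and 0.60, -0.24 and -0.41 at 72 h. The 3 h mean was 0.72 above sham and the 72 h mean 1.01 below it, with 1 of the 72 h lungs inside the sham range. Neither passed: the adjusted p was 0.182 at 3 h and 0.0519 at 72 h. The 72 h difference passed uncentred (0.0452), with quantile normalization (0.0314), without spots whose ratio was near the floor (0.047) and with array weights (0.0343), which also called the 3 h difference (0.0193). It passed too without any 1 of sham replicate 3, the 3 lungs at 3 h, 24 h replicate 1, 48 h replicate 2 and 72 h replicate 1 (0.0203 to 0.0495). In the main analysis the late against early difference was -0.60 ± 0.20 (SE; adjusted p = 0.0602, limma). Decorin (Dcn), a small proteoglycan that coats collagen fibrils, was -0.72, 0.25 and 0.49 in the controls and -0.90, -0.52, -0.68, -0.76 and 0.12 in the shams. It was -0.77, -0.48 and 0.44 at 1 h, -0.37, -0.38 and 0.37 at 3 h and -0.79, -0.91, 0.52, -0.051 and 0.50 at 6 h. Later it was -0.11 and -0.23 at 16 h, 1.46, 0.32 and 0.32 at 24 h, -1.18, -0.38 and -1.55 at 48 h and -0.74, -0.15 and -0.33 at 72 h. All 3 lungs at 24 h lay above every sham lung, and the difference missed the threshold (1.25 ± 0.38, SE; adjusted p = 0.0607, limma), which it passed with the replicate block (0.0439) or without sham replicate 6 (0.0496). Sparc was at 0.76, 1.01, 1.58, 0.090 and 0.59 at 6 h against 1.26 to 2.22 in the shams, with a mean 0.72 below sham (adjusted p = 0.17, limma). Spp1 differed from its sham mean by at most 0.32 at all 7 times.

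Fibroblasts and smooth muscle make most of this matrix, and their markers were read from the same arrays. The 8 fibroblast markers, of which 2 are also in the list of other matrix genes, had medians of 0.076 to 0.80 in the sham lungs. Their medians were -0.43 to 0.47 at 24 h and -0.20 to 0.10 at 48 h, and 0 of the 7 tested were called in any comparison. The 5 smooth muscle markers had medians of 0.0021 to 0.54 in the shams and 0.028 to 0.12 at 48 h, with 1 called lower at 3 h and 0 in the other comparisons. Their part in the Col1a2 and Fn1 differences was not tested.

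No basement membrane gene was called at any time in the main analysis. The laminin chains Lama3 (of laminin-332, under epithelia) and Lamc1 (the gamma 1 chain of most laminins) had the lowest F test p-values of the class. Lama3 was 0.38, 0.38 and 0.087 in the controls and 0.066, 0.11, 0.25, 0.10 and 0.14 in the shams. At 1 h it was -0.061, -0.12 and -0.23, at 3 h -0.83, -0.051 and 0.29 and at 6 h -0.41, -0.44, -0.75, -1.10 and -0.12. The later ratios were -0.72 and -0.23 at 16 h, -0.55, -0.41 and -0.43 at 24 h, 0.11, 0.29 and -0.29 at 48 h and 0.0070, 0.077 and -0.52 at 72 h. The lungs at 1, 6, 16 and 24 h all lay below every sham lung, and 18 of 22 bled lungs were below the lowest of the unbled ones. The largest difference, at 6 h, was -0.70 ± 0.20 (SE; adjusted p = 0.0925, limma). Lama3 was called lower at 6 h with array weights (0.0225) or with sham and control together (0.0176), and at 24 h without centring (-0.78, adjusted p 0.0479). Lamc1 was 0.68, 0.61 and 0.54 in the controls and 0.56, 0.41, 0.76, 0.62 and 0.54 in the shams. Lamc1 read 0.51, 0.79 and 0.43 at 1 h, -0.079, 0.33 and 0.88 at 3 h and 0.26, 0.15, 0.33, -0.72 and 0.19 at 6 h. It was -0.30 and 0.21 at 16 h, 0.53, 0.27 and -0.086 at 24 h, 0.27, 0.34 and 0.032 at 48 h and 0.36, 0.65 and 0.078 at 72 h. All 5 lungs at 6 h were below the sham lungs, 1 of them far below at -0.72, and the difference was -0.54 ± 0.21 (SE; adjusted p = 0.172, limma). Without that lung, 6 h replicate 4, it was -0.34. The same lung was the lowest of its group for Lama3 and Sparc, and its liver gene median was 0.41 against -0.97 to -0.51 in the other 6 h lungs; the part of this in the 6 h values was not tested. Among the other 3 members of the class, Lama5 and Col18a1 had means above sham at 6 and 5 of the 7 times and Lamb2 below it at 6, without a call.

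**Figure D4:**
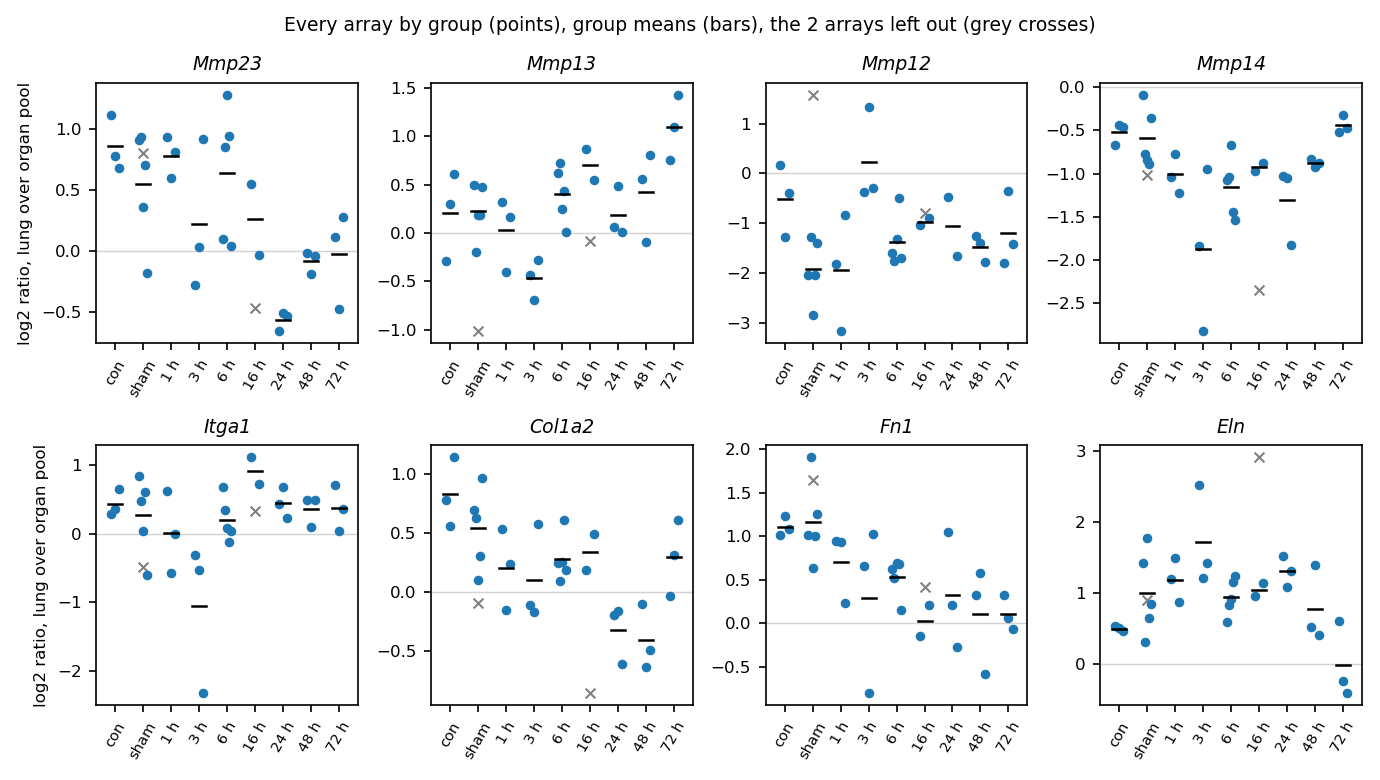
Log2 ratio of lung to pool (vertical axis) by group (horizontal axis) for members described in the text, 1 panel per gene for Mmp23, Mmp13, Mmp12, Mmp14, Itga1, Col1a2, Fn1 and Eln; points are lungs, bars are group means and grey crosses are the 2 lungs left out. For Fn1, 15 of the 22 bled lungs lie below all unbled ones, and for Itga1 the 3 h mean is drawn down by 1 lung at -2.33.

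Among the 6 integrin alpha subunits, Itga1, the collagen-binding alpha 1 chain, was called lower at 3 h. It was 0.29, 0.37 and 0.65 in the controls and 0.84, 0.48, 0.034, 0.61 and -0.61 in the shams. After bleeding it was 0.62, -0.57 and -0.0047 at 1 h, -0.32, -0.53 and -2.33 at 3 h and 0.68, 0.35, 0.086, -0.13 and 0.034 at 6 h. Later on, Itga1 read 1.12 and 0.72 at 16 h, 0.43, 0.68 and 0.22 at 24 h, 0.49, 0.10 and 0.49 at 48 h and 0.71, 0.041 and 0.36 at 72 h. The 3 h lungs overlapped with sham, and 3 h replicate 3 at -2.33 stood apart from the rest. The difference at 3 h was -1.33 ± 0.36 (SE; adjusted p = 0.0417, limma); without that lung it was -0.70 with an adjusted p of 0.155 (limma). The call was also lost without any 1 of sham replicates 1, 3 and 5, control replicate 2, 1 h replicate 3, 6 h replicates 2 and 3 and the lungs at 16 h, at adjusted p-values of 0.0501 to 0.0887. It was lost as well with quantile normalization (0.0583), all 32 arrays (0.0919) and array weights (-0.92, adjusted p 0.0981). Itga2, the alpha chain of the other main collagen receptor, was 0.71, 0.26 and 0.52 in the controls and 0.23, -0.29, -0.38, -0.29 and 0.23 in the shams. It was 0.11, -0.74 and -0.030 at 1 h, -0.76, -1.70 and -0.44 at 3 h and -0.022, -0.053, -0.16, -0.45 and -0.93 at 6 h. Later it was -0.16 and -0.36 at 16 h, -0.73, -0.47 and -0.37 at 24 h, 0.21, 0.067 and 0.082 at 48 h and -0.30, -0.0075 and 0.87 at 72 h. The 3 h lungs lay below every sham lung and the difference was -0.87 ± 0.29 (SE; adjusted p = 0.0867, limma), called with sham and control together (0.0179) or without 3 h replicate 3 (0.0293). At 3 h 2 of the 6 alpha subunits were above sham and 4 below.

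No beta subunit was called in the main analysis. Itgb7, which pairs in homing receptors of lymphocytes, and Itgb3, which pairs with the alpha v and platelet chains, had the lowest F test p-values. Itgb7 was -0.39, -0.67 and -1.09 in the controls and -1.48, 0.57, -0.45, -0.71 and -2.22 in the shams. At 1 h it was -0.94, 0.29 and -0.42, at 3 h -1.5, -1.26 and -0.77 and at 6 h -1.39, -1.14, -1.23, -1.88 and -1.27. The later ratios were -1.75 and -0.77 at 16 h, -0.40, -1.30 and 0.18 at 24 h, -0.044, 0.36 and -0.61 at 48 h and -1.25, 0.18 and -0.76 at 72 h. The sham lungs spanned the values of all 22 bled lungs, and its F test had an adjusted p of 0.229. Itgb3 was 0.16, 0.042 and 0.67 in the controls and 0.15, 0.14, 0.23, 0.27 and 0.29 in the shams. Itgb3 read -0.047, 0.67 and 0.63 at 1 h, 0.10, 0.76 and 0.38 at 3 h and 0.36, 0.84, 0.95, 0.95 and 0.68 at 6 h. It was 0.71 and 0.77 at 16 h, 0.16, 0.45 and 0.66 at 24 h, 0.33, 0.10 and 0.63 at 48 h and 0.10, 0.49 and 0.62 at 72 h. The sham lungs were close together, although sham replicate 1 read -0.21 and 0.50 on its 2 spots. Of the 22 bled lungs 17 lay above the highest sham lung, all 5 at 6 h included. Control replicate 3, at 0.67, lay above it too. The difference from sham at 6 h was 0.54 ± 0.19 (SE, adjusted p = 0.148, limma), called with array weights (0.0381). Itgb1, the shared beta chain of the collagen and fibronectin receptors, was below sham at the 7 times, by at most 0.28, without a call. The leukocyte subunits Itgam and Itgad passed no test.

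The metalloproteinases held most of the calls, in both directions. Mmp13, collagenase 3, which cuts fibrillar collagen, was called higher than sham at 72 h. It was -0.28, 0.30 and 0.61 in the controls and 0.49, -0.20, 0.19, 0.18 and 0.48 in the shams. After bleeding it was 0.32, -0.41 and 0.17 at 1 h, -0.43, -0.69 and -0.28 at 3 h and 0.62, 0.72, 0.25, 0.43 and 0.0071 at 6 h. Later on, Mmp13 read 0.87 and 0.55 at 16 h, 0.064, 0.49 and 0.0075 at 24 h, 0.56, -0.095 and 0.81 at 48 h and 0.75, 1.10 and 1.43 at 72 h. All 3 lungs at 3 h lay below the lowest sham, and both lungs at 16 h and all 3 at 72 h above the highest. Only the rise at 72 h passed the adjusted threshold: 0.86 ± 0.25 (SE; adjusted p = 0.0407, limma), while the 3 h difference was -0.70 ± 0.25 with an adjusted p of 0.117. Mmp13 was the one member called by the F test over the 7 times (limma, adjusted p = 0.0254). The late lungs were above the early ones by 0.58 ± 0.16 (adjusted p = 0.0253). Left uncentred, the 72 h difference was the same size with an adjusted p of 0.0566, and without 72 h replicate 3 it was 0.70 with an adjusted p of 0.243. It was also lost without any 1 of sham replicates 3, 4 and 5 or 72 h replicate 2 (adjusted p 0.06 to 0.145), and the F test's call without 72 h replicate 2 (0.0612) or 3 (0.0812). The late against early call was lost without any 1 of 1 h replicate 2, 24 h replicate 2, 48 h replicates 1 and 3 and 72 h replicate 3 (0.0516 to 0.0614). With all 32 arrays the late against early and F test calls were lost (0.0868 and 0.0911), and with the replicate block so were these (0.061 and 0.0635) and the 72 h call (0.115). Of 10 lung epithelium markers 3 were called lower at 72 h, where their median was 0.90 to 1.08 in the 3 lungs against 1.14 to 2.12 in the shams; their part in the 72 h values was not tested.

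Mmp23, a membrane protease of the family without the usual hemopexin domain, was called lower, at 24 h and in late lungs. It was 1.12, 0.78 and 0.69 in the controls and 0.91, 0.94, 0.36, 0.71 and -0.18 in the shams. It was 0.94, 0.60 and 0.82 at 1 h, -0.28, 0.033 and 0.92 at 3 h and 0.10, 0.85, 1.28, 0.95 and 0.041 at 6 h. Later it was 0.55 and -0.031 at 16 h, -0.65, -0.50 and -0.53 at 24 h, -0.015, -0.19 and -0.036 at 48 h and 0.12, -0.47 and 0.28 at 72 h. The 3 lungs at 24 h lay below every sham and control lung, and 4 of the 9 late lungs lay below the lowest of the 11 early ones. The late lungs were lower than the early ones by 0.77 ± 0.19, written as a late minus early difference of -0.77 (limma, adjusted p = 0.0121). This call was kept in 30 of 30 analyses with 1 lung left out and in the 9 other settings tried. The 24 h difference from sham was -1.11 ± 0.30 (SE; adjusted p = 0.0348, limma), a call that was lost without any 1 of sham replicates 1, 3 and 5 and the 3 lungs at 24 h (adjusted p 0.0562 to 0.127) or with array weights (0.0812). Mmp23 and Mmp13 thus differed in direction between early and late lungs, each by its own test. The liver gene medians of the 24 h lungs were -0.60 to -0.13, against -1.27 to -0.68 in the shams. Their part in the 24 h difference of Mmp23 was not tested.

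**Figure D5:**
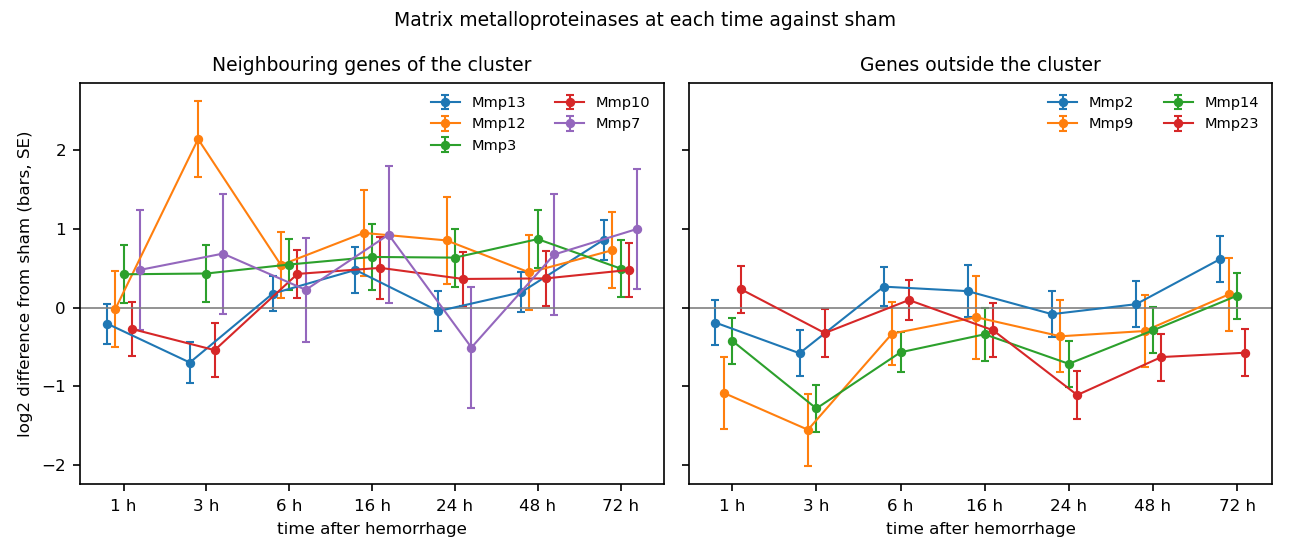
Log2 difference from sham (vertical axis, bars are 1 SE of the limma fit) at the 7 times (horizontal axis, evenly spaced and not to scale in hours), for the chromosome 8 neighbours on the left and for Mmp2, Mmp9, Mmp14 and Mmp23 on the right. Mmp13 runs from -0.70 at 3 h to 0.86 at 72 h, Mmp12 peaks at 2.14 at 3 h, Mmp14 is lowest at 3 h (-1.28) and Mmp23 at 24 h (-1.11).

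Mmp12, macrophage elastase, was called higher at 3 h, with the largest difference of any member call. It was 0.17, -1.28 and -0.40 in the controls and -2.04, -1.27, -2.84, -2.04 and -1.39 in the shams. At 1 h it was -1.81, -3.16 and -0.84, at 3 h -0.37, 1.33 and -0.28 and at 6 h -1.59, -1.76, -1.31, -0.50 and -1.70. The later ratios were -1.03 and -0.90 at 16 h, -0.48 and -1.64 at 24 h, where 1 lung had no value, -1.25, -1.38 and -1.77 at 48 h and -1.79, -0.35 and -1.42 at 72 h. The 3 h lungs and both 16 h lungs lay above every sham lung, and 2 of the 3 h lungs were within the range of the controls. The difference at 3 h was 2.14 ± 0.48 (SE; adjusted p = 0.0184, limma). Without 3 h replicate 2, at 1.33, it was 1.59 with an adjusted p of 0.107. With all 32 arrays, where the left-out sham lung is at 1.58, it was 1.56 with an adjusted p of 0.207. With the replicate block the adjusted p was 0.0756. Repeat spots of Mmp12 differed widely on some arrays: sham replicate 4 read -0.68 and -5.0, and sham replicate 5 read -0.60 and -3.47. The sham lungs were also below the controls, by an amount that was not called (-1.41 ± 0.48, SE; adjusted p = 0.817, limma).

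Mmp14 (MT1-MMP, the membrane protease that activates pro-Mmp2) was called lower at 3 h. It was -0.66, -0.43 and -0.46 in the controls and -0.086, -0.77, -0.85, -0.89 and -0.35 in the shams. Mmp14 read -1.04, -0.77 and -1.22 at 1 h, -1.84, -2.82 and -0.94 at 3 h and -1.07, -1.04, -0.67, -1.45 and -1.54 at 6 h. It was -0.97 and -0.88 at 16 h, -1.02, -1.05 and -1.83 at 24 h, -0.83, -0.93 and -0.88 at 48 h and -0.52, -0.33 and -0.47 at 72 h. The 3 h and 24 h lungs lay below every sham and control lung, and 14 of 22 bled lungs lay below the lowest unbled one. The 72 h lungs were within the sham range. The 3 h difference was -1.28 ± 0.29 (SE; adjusted p = 0.0187, limma); without 3 h replicate 2, at -2.82, it was -0.80 with an adjusted p of 0.136. The call was also lost without sham replicate 1 (0.0522) or sham replicate 6 (0.054), and with all 32 arrays (0.0716). Mmp2 (gelatinase A) itself was 0.58 below sham at 3 h and 0.62 above it at 72 h, with adjusted p-values of 0.236 and 0.195.

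Mmp9, the gelatinase carried by neutrophils, had a large difference that missed the threshold. It was -0.92, 0.32, -1.15, -0.63 and -0.027 in the shams, -1.35, -2.33 and -1.01 at 1 h and -1.62, -1.05 and -3.42 at 3 h. The 3 lungs at 3 h overlapped with sham, 1 of them at -3.42, and the difference was -1.55 ± 0.46 (SE; adjusted p = 0.0575, limma), called uncentred (0.0466) or with sham and control together (0.0206). It was also called without 3 h replicate 2 (-2.04, adjusted p 0.0299) or sham replicate 4 (0.0332). The 5 neutrophil markers had medians of 0.30 to 1.05 in the shams and 1.02 to 1.81 at 3 h, and 1 of the 5 was called higher at 3 h and 1 at 24 h. The 3 macrophage markers, 1 of which is the member Itgam, had medians of 0.16 to 1.00 in the shams and 0.77 to 0.91 at 3 h, with 0 called in any comparison. Their part in the Mmp9 and Mmp12 values was not tested.

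The remaining neighbours of Mmp13 on chromosome 8 made no call. Mmp3 (stromelysin 1) was -0.54, -1.29, -2.26, -0.34 and -0.78 in the shams and above the sham mean at 7 of 7 times, by 0.42 to 0.87, with the lowest adjusted p against sham over the 7 times at 48 h (0.229, limma). Mmp10 (stromelysin 2) was 0.54 below sham at 3 h and 0.48 above it at 72 h, without a call (adjusted p 0.362 and 0.422). Mmp7 was above sham at 6 of 7 times, and at 24 h 1 lung at -6.27 lay far below the other lungs of that time at -1.07 and -0.60. At 72 h 9 of the 12 metalloproteinases were above sham, with a median of 0.49, and at 3 h 4 of the 12 were, with a median of -0.22. Over all genes the median difference was -0.0011 at 72 h and -0.025 at 3 h. These counts are against sham only and leave out the controls. In the controls Mmp3 was -0.062, -1.08 and -1.04 and Mmp10 was -1.22, -0.66 and -0.53. Mmp7 was -1.68 and -1.14 in the controls with a value. The 72 h lungs overlapped with the controls for these genes and for Mmp12 and Mmp16. All 72 h lungs of Mmp13 and Mmp2 lay above the controls, and all of Mmp23 lay below.

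The 3 inhibitors made no call in the main analysis. Timp2, which also takes part in pro-Mmp2 activation, was 0.33, -0.13 and 0.33 in the controls and 1.18, -0.68, -0.38, -0.32 and 0.47 in the shams. After bleeding it was -0.041, -3.09 and -3.18 at 1 h, -0.65, 0.16 and 0.012 at 3 h and 0.17, -0.92, -0.44, -1.43 and -0.51 at 6 h. Later on, Timp2 read -1.06 and -0.72 at 16 h, 0.0062, -0.21 and -1.05 at 24 h, -0.060, -0.35 and -0.029 at 48 h and 0.45, -0.45 and -0.43 at 72 h. At 1 h 2 of 3 lungs were near -3 and the other lay within the sham range, and the difference was -2.16 ± 0.51 (SE; adjusted p = 0.144, limma), called with array weights (0.0161) or with sham and control together (0.0442). Without 1 h replicate 1, the lung within the sham range, it was -3.19 with an adjusted p of 0.000236. Of the lungs near -3, 1 h replicate 3 read 0.28 on 1 spot of Timp2 and -6.63 on the other. The second is a near-floor spot, with a ratio below 0.05 on the linear scale, and the value of this lung rests on it. Timp3 was 1.07, 1.17 and 0.88 in the controls and 1.10, 1.25, 1.25, 1.46 and 1.59 in the shams. It was 1.28, 0.99 and 0.70 at 1 h, 0.80, 1.37 and 1.64 at 3 h and 1.80, 1.62, 2.04, 0.97 and 1.68 at 6 h. Later it was 0.91 and 1.30 at 16 h, 2.61, 1.39 and 1.08 at 24 h, 1.36, 1.07 and 1.19 at 48 h and 1.65, 0.80 and 0.64 at 72 h. It remained above the pool in all lungs, with 1 lung at 24 h at 2.61, and its F test had an adjusted p of 0.365. Timp1, an inhibitor induced in inflamed tissue, differed from sham by at most 0.75 at all 7 times and passed no test; 1 control lung lay at -2.28.

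Other genes of the pathway were read in 4 lists beside the members. Of 10 genes that process collagen and elastin, such as P4hb (prolyl hydroxylase beta) and Ppib (cyclophilin B), 0 were called in any comparison. Of 28 other matrix and adhesion genes, 1 was called at 3 h (lower). There was also 1 at 24 h and 1 at 48 h (both higher), and 2 at 72 h (1 higher, 1 lower). Of all genes 3.16% were called at 3 h, 3.96% at 24 h, 1.64% at 48 h and 6.82% at 72 h. The hyaluronan receptor Hmmr was -1.43, -1.38, -0.31, -0.46 and -0.56 in the shams, 0.17, 0.37 and 0.48 at 48 h and -0.21, 0.37 and 0.19 at 72 h. The bled lungs at 48 h and 72 h all lay above the sham lungs, and over the mean of the 7 times Hmmr was higher by 0.97 ± 0.20 (SE; adjusted p = 0.00832, limma). The proteoglycan aggrecan (Acan) was -1.78, -1.43, -1.52, -1.40 and -1.73 in the shams and -0.62, -0.76 and -0.33 at 24 h, without overlap, and was higher at 24 h by 1.00 ± 0.25 (SE; adjusted p = 0.0192, limma). The glypican Gpc3 was called lower at 72 h with -0.92 ± 0.29 (SE; adjusted p = 0.0494, limma), and brevican (Bcan) at 3 h with -0.99 ± 0.25 (SE; adjusted p = 0.0322, limma). Gpc3 and tenascin R (Tnr) were the 2 genes of this list called lower in late than in early lungs (8% of all genes were called, in either direction).

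Of 15 other proteases and inhibitors, 1 was called higher at 3 h (background 3.16%) and 2 lower at 72 h (background 6.82%). Cathepsin S (Ctss), an elastin-cutting lysosomal protease of macrophages, was 1.12, 0.36, 0.33, 0.62 and 0.40 in the shams and -0.38, -0.74 and -0.73 at 72 h. Every 72 h lung lay below every sham and control lung, with -1.18 ± 0.23 (SE; adjusted p = 0.00363, limma). Serpinb2, the type 2 plasminogen activator inhibitor, was 0.061, -0.83, -0.74, -0.80 and -0.56 in the shams and -1.16, -2.49 and -1.66 at 72 h, also without overlap, with -1.19 ± 0.35 (SE; adjusted p = 0.0396, limma); without near-floor spots it was -0.47 with an adjusted p of 0.411. Tissue plasminogen activator (Plat) was 1.64, -0.62, 1.19, 2.14 and -0.51 in the shams and 5.10 and 5.15 in the 2 lungs at 3 h that had a value, with 4.35 ± 1.22 (SE; adjusted p = 0.0498, limma). Ctss and plasminogen (Plg) were the 2 genes of this list called by the F test (background 8.04%). The sheddase Adam10 was higher in late than in early lungs (0.91 ± 0.26, SE, adjusted p = 0.0301, limma). Among the early lungs, 1 h replicate 2 stood apart at -2.60, with the other 1 h lungs at -0.32 and 0.27. Of 24 focal adhesion and TGF-beta genes, 1 was called lower at 24 h (background 3.96%), and at 72 h 1 higher and 1 lower (background 6.82%). Actn4, an actin crosslinker, was -0.023, 0.66, -0.56, 0.44 and 0.78 in the shams and -1.27, -0.24 and -3.56 at 24 h, where 1 lung lay within the sham range. The difference at 24 h was -1.95 ± 0.47 (SE; adjusted p = 0.0177, limma); without 24 h replicate 3 it was -1.02 with an adjusted p of 0.244. Smad4, the shared transducer of the TGF-beta family, was -0.17, -0.21, -0.52, -0.33 and -0.017 in the shams and 0.80, 1.13 and 1.25 at 72 h, all above sham, with 1.31 ± 0.34 (SE; adjusted p = 0.0209, limma). The co-receptor Tgfbr3 was -0.46, -0.45 and 0.043 in the controls and 0.72, 0.38, 0.81, 0.56 and 0.79 in the shams. At 72 h it was 0.0086, -0.28 and -0.29, all below sham and within the range of the controls. The 72 h difference from sham was -0.84 ± 0.22 (SE, adjusted p = 0.0223, limma). The shams were above the controls by an amount that was not called (0.94 ± 0.22, SE, adjusted p = 0.503, limma). The F test calls of these other pathway genes were not followed through the alternatives. Among their other named calls, that of Ctss at 72 h was kept in every alternative run. Each of the rest was lost in 1 or more of them.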

How the data were processed

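Lung RNA of 32 rats was measured on 2-colour spotted arrays. The values used are the log2 ratios of the series' value table, as deposited by the authors; the dyes, the scanner software and any normalization were not given in the sources used here, and an authors' normalization could have removed a shift of all genes. Groups came from the sample titles. Each array's ratios were centred on their median (-0.38 to 0.06 as deposited), and spots with 1 symbol in the platform annotation (10652 of 13056) were averaged per gene. Of the members, 46 lay on 2 spots; Mmp2 had more than 1 accession. Sham replicate 2 and 16 h replicate 3 were left out of the fit.

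A single two-sided limma model (3.58.1, R 4.3.3; lmFit, eBayes) held 9 groups and the 4999 genes measured on 2 or more arrays in each group. Each comparison's p-values were adjusted over those genes (Benjamini-Hochberg), and a call needed an adjusted value under 0.05. The code was tested on simulated data. Named in full were called members, the 2 members of each role with the lowest F test p, and the 2 with the lowest p in sham against control and late against early; other pathway genes were named if called, or if among the 2 with the lowest F test p of their list. Members, lists and tests were chosen with earlier results of these data known. Marker lists covered lung epithelium, endothelium, smooth muscle, fibroblast, cartilage, neutrophil, macrophage, T and B cell, platelet, liver, skeletal muscle, and kidney, gut, skin and brain. Alternatives were no centring, quantile normalization, no filter, spots averaged per accession, ratios at or below 0.05 on the linear scale left out, all 32 arrays, array weights, a replicate block, sham and control together, each lung left out, and unnamed spots added. Promoters came from RefSeq (GRCr8).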

Additional observations from a re-analysis of the deposited data

Results flagged for a closer look

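A lung apart from its group was sought only in groups of 4 or more lungs, which were sham and 6 h (5 each). Groups at the other times and the controls were too small. Among 38 pairs of a named member and 1 of these groups, 1 such lung was found, where chance alone gives about 1 in 20. Lamc1 in 6 h replicate 4 read -0.72, with the nearest of the other 6 h lungs at 0.15. Early and late lungs differed from each other in 2 members by the test of the difference itself. Mmp13 was higher in late lungs by 0.58 (limma, adjusted p = 0.0253), and Mmp23 was lower, with a late minus early difference of -0.77 (adjusted p = 0.0121). Outside the values used, the median of 16 liver genes was 3.10 in sham replicate 2 and 2.64 in 16 h replicate 3, against a highest control value of -0.84.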

How the results depend on the processing

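Numbers of members called are given in the order 1, 3, 6, 16, 24, 48 and 72 h, any time, mean of times, late against early, sham against control: 0, 3, 0, 0, 2, 1, 1, 1, 1, 2 and 0. No filter, averaging per accession and adding unnamed spots (chosen after seeing the data) left every count as it was. All 32 arrays gave 0 at 3 h, 1 at 24 h, 0 at 48 h, 0 at any time and 1 late against early. The counts over all 5005 genes were 19, 119, 17, 144 and 189. In the main analysis 158, 198, 82, 402 and 400 of 4999 genes were called in these comparisons. Array weights gave 1, 3 and 1 at 1, 6 and 16 h, 0 at 24 h, 5 at 48 h, 3 at 72 h, 13 at any time, 3 in the mean and 5 late against early. Over all genes array weights called 41, 289, 167, 144, 864 and 818 of 4999 at 1, 6, 16, 24, 48 and 72 h. They called 2026 at any time, 745 in the mean and 701 late against early. Uncentred ratios gave 4 at 3 h, 3 at 24 h and 4 at any time, against 185, 398 and 482 of 4999 genes. Their 1 call at 72 h was Eln, not Mmp13. Quantile normalization gave 2 at 3 h, 3 at 72 h, 2 at any time and 3 late against early. The counts over all 4999 genes were 89, 481, 486 and 485. Without near-floor spots there were 2 at 72 h and 5 at any time, against 384 and 539 of 4983 genes. Sham and control together gave 1 at 1 h, 6 at 3 h, 3 at 6 h, 2 at 72 h, 7 at any time and 8 in the mean. The counts over all 5000 genes were 11, 478, 357, 553, 893 and 1042. With 1 lung left out the ranges were 0 to 1, 1 to 5, 0 to 0, 0 to 0, 0 to 2, 0 to 1, 0 to 3, 0 to 5, 0 to 3, 1 to 5 and 0 to 0. The counts over all genes moved as well with 1 lung left out. They were 37 to 447 at 3 h, 36 to 287 at 24 h and 10 to 130 at 48 h. At 72 h they were 36 to 430, and at any time 146 to 615. Replicate numbers did not pair the lungs (median r of same-number pairs -0.0030, over 0.1 in 23 of 94, and 1 of 30 lungs was most like its own number). With the replicate block the counts were 2 at 3 h, 0 at 48 h, 0 at 72 h, 0 at any time, 0 in the mean and 1 late against early. Over all 4996 genes they were 43, 3, 134, 106, 72 and 236. The main analysis called 341 genes at 72 h and 172 in the mean.

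Over all genes, the any-time count of 402 ranged from 106 (block) to 2026 (array weights), and the median difference moved to -0.17 at 24 h without centring. Of 1663 recomputed gene values 1419 kept direction and side of the threshold, 222 kept the direction but lost the call, 21 gained one, and 1 reversed: Timp3 at 24 h was -0.10 without 24 h replicate 1, and up to 0.67 without another lung. The causes were not tested. The number of arrays, 2 to 5 a group, and repeat spots that disagree (Mmp12, Timp2) limit the precision.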

Other observations

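The chains of type I collagen, Col1a1 and Col1a2, are made together as 1 heterotrimer and were set against each other within each lung after their values had been seen, so no test is given. Col1a1 minus Col1a2 (each a log2 ratio to the pool) was -1.31, -0.26 and -1.22 in the controls and averaged -0.34 ± 0.62 (SD, n = 5) in the sham lungs. It averaged 1.12 ± 0.86 (n = 3) at 24 h and 1.38 ± 0.88 (n = 3) at 48 h, where all lungs lay above the highest sham lung at 0.52. At the other 5 times the mean was also above sham, by 0.44 at 6 h to 0.86 at 1 h and the lungs overlapped with sham, against differences of 1.46 at 24 h and 1.72 at 48 h. The 24 h lungs, at 0.70, 0.55 and 2.10, had liver gene medians of -0.13, -0.39 and -0.60. The 48 h lungs, at 0.88, 2.39 and 0.87, had liver gene medians of -0.78, 0.15 and -1.35. The part of liver signal was not tested.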
